A study of Mus musculus with 2 samples.

Results

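The colony-stimulating factors and their receptors were examined in single cells of mouse pancreatic tumors. They comprised 8 of the 32285 genes listed in the files, taken by gene symbol: the ligands Csf1, Il34, Csf2 and Csf3 and the receptor chains Csf1r, Csf2ra, Csf2rb and Csf3r. Tumors grew from KPC cells, which are mouse pancreatic cancer cells, placed under the pancreatic capsule of male mice. One library, labelled FLOX, came from mice whose Slc16a1 gene, which encodes the lactate transporter MCT1, carries loxP sites. The library labelled MCT1-KO came from mice with a tamoxifen-inducible Cre recombinase. Its Col1a2 promoter is active in pancreatic stellate cells (PSCs) and other fibroblast-like cells, so Slc16a1 is meant to be lost only in such host cells. Tamoxifen or its vehicle, corn oil, was given before implantation. Whether the FLOX mice carry Cre and which agent they received are not given in the sources used here, and the labels give neither an age nor the number of mice pooled in a library. With 1 library per genotype, values compare these libraries and not the genotypes, and no test or p-value was computed.

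The FLOX library kept 8739 cells and the library labelled MCT1-KO 11689, with a median of 4069 and 3706 unique molecules (UMIs) per cell. Cells were grouped into 23 clusters, of which 18 were named from marker genes and 5 were left unnamed. Tumor-like cells numbered 2278 and 3808, macrophage-like cells 2561 and 2226, and neutrophil-like cells 756 and 705. Of the tumor markers, Krt18 was found in 88.9% and 91.3% of tumor-like cells and Sox9 in 75.8% and 84.8%. Krt8 and Tm4sf1 were as common, in 86.0% and 90.3% and in 91.4% and 92.0%. Krt19 was found in 22.3% and 23.3%, Krt7 in 31.3% and 34.0% and Msln in 23.6% and 34.7%. Epcam was near 0, at 0.389 and 0.508 CPM, as was Cldn4, at 0.0598 and 0.163 CPM. Muc1 (1.58 and 2.34 CPM) and Cldn7 (3.59 and 2.78 CPM) were low, and Slurp1 was found in 1.93% and 2.36%. S100a8 was found in 91.1% and 96.9% of neutrophil-like cells, and Ly6g in 4.37% and 1.56%. The median UMI count was 17497 and 15896.5 in tumor-like cells and 5883 and 4844 in macrophage-like cells. The libraries shared 59 cell barcodes. Slc16a1 in PSC-like cells was 25.4 CPM (19.3–32.95) in the FLOX library and 35.8 CPM (29.5–43.1) in the other, a ratio of 1.41 (1.02–1.97). Free RNA held 21.4 and 21 CPM, so the FLOX level could not be separated from it, while that of the other library lay above it. In its single-cell data the paper reports less MCT1 in PSCs of the knockout mice, the opposite direction to these counts. Whether the deleted part of the gene lies within the counted 3′ end is not given in the sources used here, so these counts do not check the label. Levels are CPM, the UMIs of a gene scaled to a total of 1000000 UMIs of the class, and brackets hold 95% intervals that cover counting error only. Between the libraries, 9 heat shock genes summed to 8403 against 3222 CPM in tumor-like cells and 5836 against 2229.7 CPM in macrophage-like cells. Acinar enzyme genes in free RNA, taken from barcodes with 10 to 100 UMIs, summed to 335 CPM in the FLOX library and 17026 CPM in the library labelled MCT1-KO. Ratios recomputed without these genes in the total, or with free RNA subtracted, are given with the alternatives in the closing section.

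By GENCODE vM21 on GRCm38, Csf1 lies at chr3:107741048-107760469, Il34 at chr8:110741829-110805924, Csf2 at chr11:54247271-54249667 and Csf3 at chr11:98701263-98703629. The receptor genes lie at chr18:61100598-61132149 (Csf1r), chr19:61223957-61228429 (Csf2ra), chr15:78325752-78353847 (Csf2rb) and chr4:126024550-126044440 (Csf3r). The build behind the deposited counts is not known, and positions were matched by gene identifier. Csf2rb has a neighbouring copy, Csf2rb2, with 91.3% identity over 4670 aligned bases of the longest coding transcripts, so how reads were split between them is uncertain.

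Colony-stimulating factors are secreted proteins that control the survival, growth and activity of myeloid cells. Csf1 (M-CSF) and Il34 are separate ligands of the receptor tyrosine kinase Csf1r, on which tissue macrophages depend. Csf2 (GM-CSF) binds a receptor made of the ligand-specific chain Csf2ra and the signalling chain Csf2rb, which the receptors of IL-3 and IL-5 also use. Csf3 (G-CSF) acts through Csf3r and drives the production and release of neutrophils. In pancreatic cancer, factors of this family made by tumor cells and fibroblasts recruit and shape macrophages and neutrophils.

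RefSeq promoters of GRCm38.p6, 250 bases before to 50 bases after the annotated start, were matched for 4 of the 8 genes (Csf1, Csf2, Csf2ra and Csf3r). Of these, 3 are printed because their genes carry the main patterns below: the ligand with the most counts behind it, and receptor chains detected in both macrophage-like and neutrophil-like cells. Capitals mark the letters GGG and CC with any 5 bases between, a loose NF-kB pattern, in Csf1, and GAGGAA, the core bound by PU.1 and other ETS factors, in Csf2ra and Csf3r. They lie at chr3:107760420-107760719 on the minus strand, chr19:61228369-61228668 on the minus strand and chr4:126024409-126024708 on the plus strand, and each runs 5′ to 3′ along its gene.
Csf1: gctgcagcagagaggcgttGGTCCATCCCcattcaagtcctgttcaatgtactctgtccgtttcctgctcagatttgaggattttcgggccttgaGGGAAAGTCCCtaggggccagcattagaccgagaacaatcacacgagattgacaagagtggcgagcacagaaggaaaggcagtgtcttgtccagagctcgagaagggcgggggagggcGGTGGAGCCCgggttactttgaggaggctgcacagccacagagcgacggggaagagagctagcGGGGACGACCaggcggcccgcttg
Csf2ra: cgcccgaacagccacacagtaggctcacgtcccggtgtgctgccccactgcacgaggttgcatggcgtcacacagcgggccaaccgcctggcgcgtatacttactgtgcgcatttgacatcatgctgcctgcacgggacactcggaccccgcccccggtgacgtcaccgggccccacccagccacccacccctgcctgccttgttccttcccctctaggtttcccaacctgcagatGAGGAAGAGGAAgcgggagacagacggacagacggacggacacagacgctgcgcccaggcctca
Csf3r: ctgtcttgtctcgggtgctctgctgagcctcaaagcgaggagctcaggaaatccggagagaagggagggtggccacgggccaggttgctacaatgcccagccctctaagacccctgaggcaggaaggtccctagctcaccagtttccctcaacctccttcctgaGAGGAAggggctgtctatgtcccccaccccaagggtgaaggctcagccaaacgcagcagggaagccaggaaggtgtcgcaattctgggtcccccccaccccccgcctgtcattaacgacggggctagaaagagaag

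Searched on both strands, the NF-kB pattern matched the Csf1 promoter 5 times, with overlapping matches that merge into 4 stretches, the Csf3r promoter 4 times, the Csf2ra promoter 2 times and the Csf2 promoter once. This pattern is common and occurred in 51.0% of 32544 promoters of the same length. GAGGAA occurred in 28.1% of all promoters. It matched 2 times in Csf2ra, 1 time in Csf3r and 0 times in Csf1 and Csf2. The AP-1 pattern TGANTCA, held by 7.79% of promoters, was not found in these 4 windows. A match describes the letters only.

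Most UMIs of Csf1, Il34 and Csf3 were counted in tumor-like cells, and most receptor UMIs in myeloid cells. Tumor-like cells held 79.9% of Csf1 UMIs in FLOX and 82.6% in the library labelled MCT1-KO. For Il34 the shares were 83.4% and 82.95%, and for Csf3 76.02% and 73.8%. The same cells held at most 5.07% of the UMIs of any receptor chain. Macrophage-like cells held 90.4% and 89.3% of Csf1r, 74.5% and 75.7% of Csf2ra, and 67.5% and 68.1% of Csf2rb. Csf3r was divided between neutrophil-like cells, with 56.1% and 50%, and macrophage-like cells, with 36.6% and 40.7%. A share also depends on how many cells of a class were captured and on how many UMIs each holds. The tumor shares depend on how cells are assigned: a rule that gave each cell the class of its highest marker score left 32.4% and 52.5% of Csf1, 34.1% and 54.4% of Il34, and 35.7% and 45.9% of Csf3 in tumor-like cells. That rule kept 950 of 2278 and 2052 of 3808 cells of the tumor-like clusters in the class.

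**Figure D1:**
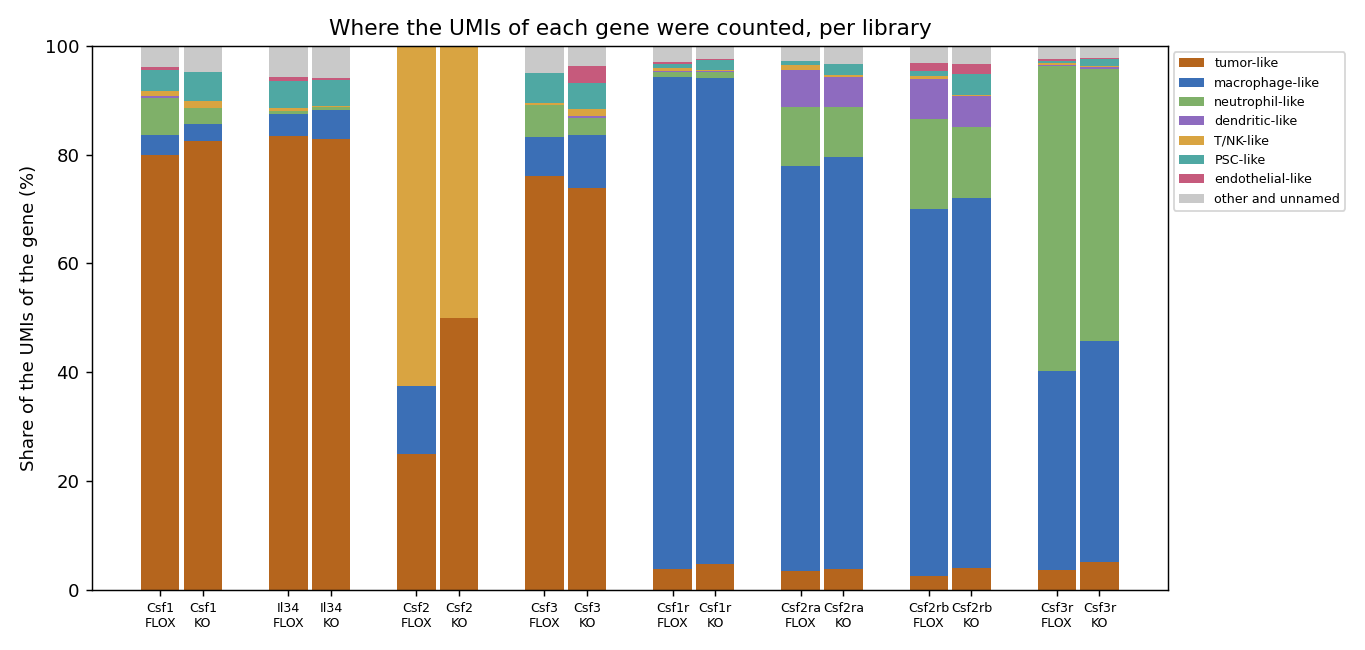
Stacked bars give the percent of each gene's UMIs counted in each cell class, with 1 bar for the FLOX library and 1 for the library labelled MCT1-KO (KO). Tumor-like cells (brown) fill most of the Csf1, Il34 and Csf3 bars, macrophage-like cells (blue) most of Csf1r, Csf2ra and Csf2rb, and neutrophil-like cells (green) 56.1% and 50% of Csf3r. Csf2 rests on 8 and 10 UMIs in all.

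Csf1, the main growth factor of macrophages, was lower in tumor-like cells of the library labelled MCT1-KO. Tumor-like cells held 5275 UMIs in FLOX and 5637 in the library labelled MCT1-KO, or 158 CPM (153–162) and 102 CPM (99.7–105). The level in the library labelled MCT1-KO was thus 0.649 times that in the FLOX library (0.625–0.674). After each cell was thinned to 1000 UMIs, 11.5% and 8.61% of tumor-like cells held a Csf1 UMI, against 1.36% and 1.33% of macrophage-like cells, where cells of fewer UMIs (129 and 149 tumor-like, 203 and 124 macrophage-like) were left out. Without thinning 1268 of 2278 and 1912 of 3808 tumor-like cells held one, as did 7.42% and 6.24% of macrophage-like cells, and a single cell held up to 61 and 28. The 10 cells with the most Csf1 held 6.05% and 4.17% of the UMIs of the class, so its level did not rest on a few cells.

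The 5 clusters of tumor-like cells differed in Csf1. The cluster led by Lif, Il11 and Inhba held 246 CPM in the FLOX library and 172 CPM in the library labelled MCT1-KO. The cluster led by the interferon-response genes Gbp6 and Cxcl10 held 238 and 151 CPM, and that led by Msln and Krt19 133 and 87.4 CPM. Lower levels were counted in the cluster led by Enpp2 and Gas1, with 125 and 54.4 CPM, and in that led by cell cycle genes, with 68.1 and 75.4 CPM. The Lif cluster stood 1.88-fold (1.77–1.98) and 2.26-fold (2.14–2.38) above the other tumor-like cells. Of the 5 clusters 4 had less Csf1 in the library labelled MCT1-KO, with ratios from 0.434 (0.398–0.472) in the Enpp2 cluster to 0.698 (0.658–0.741) in the Lif cluster, and the cycling cluster had a ratio of 1.11 (0.925–1.33). Lif, a cytokine of the IL-6 family, was detected at equal depth in 11.7% and 13.97% of tumor-like cells with a Csf1 UMI, and in 4.94% and 6.07% of those without.

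**Figure D2:**
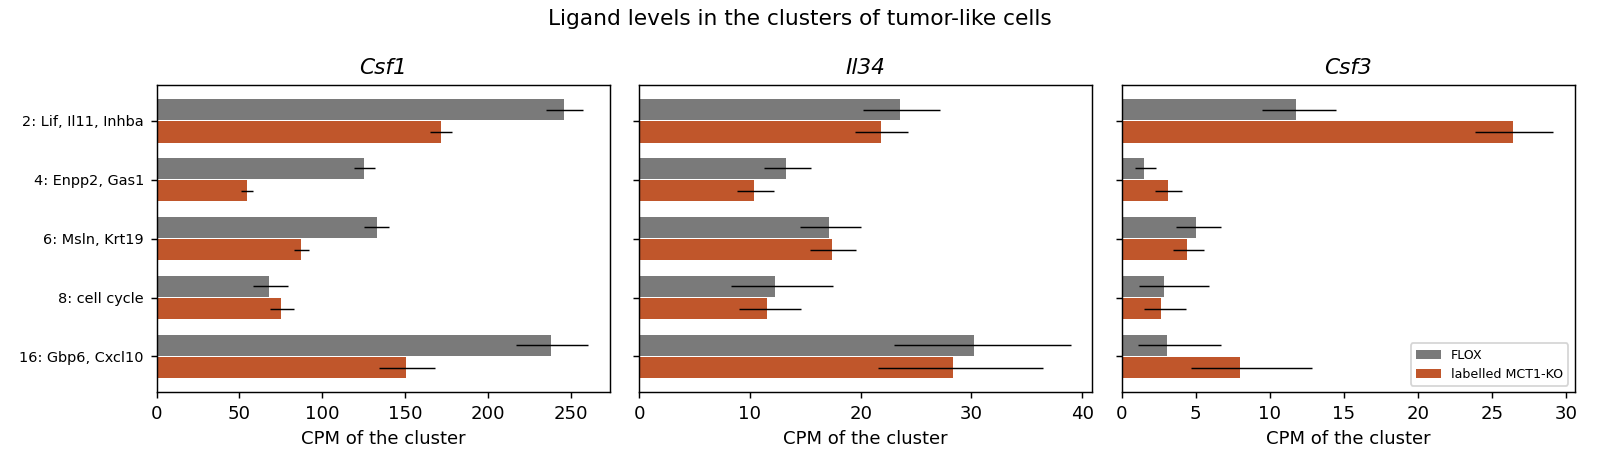
Bars give CPM of Csf1, Il34 and Csf3 in the 5 clusters of tumor-like cells, for the FLOX library (grey) and the library labelled MCT1-KO (orange), and lines are 95% counting intervals. Csf1 was highest in the Lif and Gbp6 clusters, and Csf3 reached 26.4 CPM in the Lif cluster of the library labelled MCT1-KO against 11.8 CPM in the FLOX library.

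Per UMI, the highest Csf1 level of all classes was in neutrophil-like cells. They held 454 and 195 UMIs, or 351 CPM (319.6–385) in the FLOX library and 217 CPM (187–249) in the library labelled MCT1-KO, a ratio of 0.617 (0.519–0.731). This was 2.23-fold (2.02–2.45) and 2.12-fold (1.83–2.44) the level of tumor-like cells, but a median neutrophil-like cell held 1470.5 and 1074 UMIs and the class 6.88% and 2.86% of all Csf1. At 1000 UMIs per cell, 24.8% and 17.2% of neutrophil-like cells held a Csf1 UMI, and without thinning 32.7% and 17.7% did. Free RNA held 43.5 and 43.8 CPM of Csf1, below both classes. The tumor markers Krt8 and Krt18 in neutrophil-like cells with a Csf1 UMI summed to 203 and 203 CPM, and in those without to 195 and 262 CPM, and their part in the Csf1 level was not tested. The alarmins S100a8 and S100a9 summed to 39989 and 46082 CPM with Csf1 and 72215 and 73468 CPM without.

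At a finer resolution of 1.2 the neutrophil-like cells formed 2 clusters. In the one with less S100a8 (11413 and 22712 CPM) and less Retnlg (139 and 1242 CPM), Csf1 was 477 and 269.6 CPM. In the one with more S100a8 (58324 and 67753 CPM) and more Retnlg (9799 and 16270.1 CPM) it was 192 and 114 CPM. Csf1 was therefore higher in the S100a8-low cells of both libraries, and lower in the library labelled MCT1-KO in both clusters. Retnlg was also higher in the library labelled MCT1-KO in both, and Siglecf in the S100a8-low cluster was 66.6 and 11.8 CPM, and the part of these differences in the levels of Csf1 and Csf3r was not tested. When free RNA was subtracted by the acinar genes, the level in neutrophil-like cells became 4.52 times that of tumor-like cells in the FLOX library and 3.07 times in the other. That subtraction assigned 58.5% and 38.1% of the UMIs of neutrophil-like cells to free RNA, whereas the keratin genes assigned 18.1% and 20.2%. The folds by keratin genes, given in the closing section, were smaller.

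PSC-like cells, the fibroblast-like cells in which MCT1 was targeted, held 112 CPM (98.6–127) and 113 CPM (101–125), and their ratio of 1.01 (0.855–1.19) held 1. In the FLOX library the order of Csf1 ran from neutrophil-like to tumor-like to PSC-like cells with no overlap of intervals. In the library labelled MCT1-KO tumor-like and PSC-like cells could not be separated, at 1.10-fold (0.988–1.23). T/NK-like cells held 33.3 CPM (25.9–42.1) and 54.3 CPM (43.4–67.2). Endothelial-like cells held 39 UMIs in the FLOX library, 13 of them in 1 cell, and 4 in the other. Macrophage-like cells, at 15.8 and 17.9 CPM, and dendritic-like cells, at 14.1 and 8.70 CPM, lay below the level of free RNA.

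Il34, the other ligand of Csf1r, was counted mainly in tumor-like and PSC-like cells, whose intervals overlapped. Tumor-like cells held 589 and 905 UMIs, at 17.6 CPM (16.2–19.1) in the FLOX library and 16.4 CPM (15.4–17.5) in the library labelled MCT1-KO, and the ratio of 0.933 (0.840–1.04) held 1. It moved above this interval with classes by the marker score of each cell, and below it when the upper limit on genes was also dropped. Its direction thus depended on which cells were counted, as the closing section gives. PSC-like cells held 15.6 CPM (10.9–21.7) and 16.8 CPM (12.6–21.97). Free RNA lay at 7.61 and 5.93 CPM, so that T/NK-like and neutrophil-like cells, with at most 5 UMIs each per library, gave no level above it. Among tumor-like clusters Il34 was highest in the Gbp6 cluster, at 30.2 and 28.3 CPM, followed by the Lif cluster at 23.5 and 21.8 CPM, and lowest in the Enpp2 cluster, at 13.3 and 10.4 CPM, and the cycling cluster, at 12.2 and 11.6 CPM. A small unnamed cluster led by Ttr and Epcam held 22.7 and 50.1 CPM on 6 and 16 UMIs.

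Macrophage-like cells held 28 and 58 UMIs of Il34, or 1.81 and 4.86 CPM, below free RNA in both libraries. Their ratio of 2.69 (1.68–4.39) rested on few cells, since 1 cell of the library labelled MCT1-KO held 16 of the 58 UMIs and the leading 10 cells 65.5%. The cluster of few UMIs held 4 and 39 of the UMIs, at 5.01 and 21.1 CPM, and also carried the tumor marker Krt8 at 261 and 312 CPM, whose part in the ratio was not tested. In the C1q and Ccl8 cluster, with 16 and 6 UMIs, the ratio was 0.571 (0.183–1.54) and held 1. Of the other proteins that bind IL-34, the syndecan Sdc1 was counted in tumor-like cells at 178 and 186 CPM, and Ptprz1 with 4 and 4 UMIs in all kept cells.

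Csf3, the neutrophil growth factor, was higher in tumor-like cells of the library labelled MCT1-KO. Tumor-like cells held 168 UMIs in 71 cells of the FLOX library and 552 UMIs in 170 cells of the other, or 5.02 CPM (4.29–5.84) and 10.02 CPM (9.20–10.9), a ratio of 2.00 (1.68–2.39). Free RNA moved in the same direction, from 5.40 to 9.29 CPM, a ratio of 1.72 (1.41–2.11), and the level of the whole tumor-like class lay close to that of free RNA in both libraries. Most Csf3 of the class was in the Lif cluster, at 11.8 and 26.4 CPM, 3.93-fold (2.87–5.39) and 6.85-fold (5.68–8.31) above the other tumor-like cells. The Msln cluster held 5.01 and 4.45 CPM and the cycling cluster 2.86 and 2.68 CPM, with ratios of 0.887 (0.605–1.31) and 0.939 (0.366–2.70). In the Lif cluster, the only one above free RNA in both libraries, the ratio was 2.24 (1.78–2.85). The Enpp2 cluster held 1.48 and 3.10 CPM, a ratio of 2.09 (1.19–3.82), and the Gbp6 cluster 3.07 and 8.02 CPM, a ratio of 2.61 (0.983–8.09) that held 1. With no upper limit on detected genes and classes by the marker score of each cell, the ratio in tumor-like cells was 1.24.

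Csf3 was also counted in cells that carry its receptor. Macrophage-like cells held 16 and 73 UMIs, or 1.03 CPM (0.591–1.68) and 6.12 CPM (4.80–7.70), a ratio of 5.92 (3.41–10.9). This level lay below free RNA in each library. The cluster led by Arg1, Il1a and Tnf held 10 and 56 of these UMIs, at 3.03 and 19.02 CPM, and of the 4 macrophage-like clusters it alone lay above free RNA in the library labelled MCT1-KO. Over all macrophage-like cells of the FLOX library, the tumor markers Krt8 and Krt18 summed to 88.4 CPM with Csf3 and 121 CPM without. In the library labelled MCT1-KO these sums were 222 and 183 CPM. Neutrophil-like cells held 13 and 24 UMIs, at 10.1 CPM (5.35–17.2) and 26.7 CPM (17.1–39.7). Endothelial-like cells held 0 UMIs in 122 cells of the FLOX library and 23 UMIs in 9 of 143 cells of the other, where their level of 50.6 CPM (32.1–75.9) was the highest of all classes. PSC-like cells held 12 UMIs in 2 cells and 36 UMIs in 10 cells. In T/NK-like cells of the library labelled MCT1-KO, 1 cell held 9 of the 10 UMIs.

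Csf2 was almost absent from the counts. All kept cells held 8 UMIs in FLOX and 10 in the library labelled MCT1-KO. T/NK-like cells, a known source of GM-CSF, held 5 and 5 of them, at 2.41 CPM (0.783–5.63) and 3.20 CPM (1.04–7.46). Tumor-like cells held 2 and 5 UMIs, or 0.0598 and 0.0908 CPM, and macrophage-like cells 1 and 0. Each other class held 0. The level per UMI was highest in T/NK-like cells of both libraries, and a difference between libraries was not detectable at this depth.

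**Figure D3:**
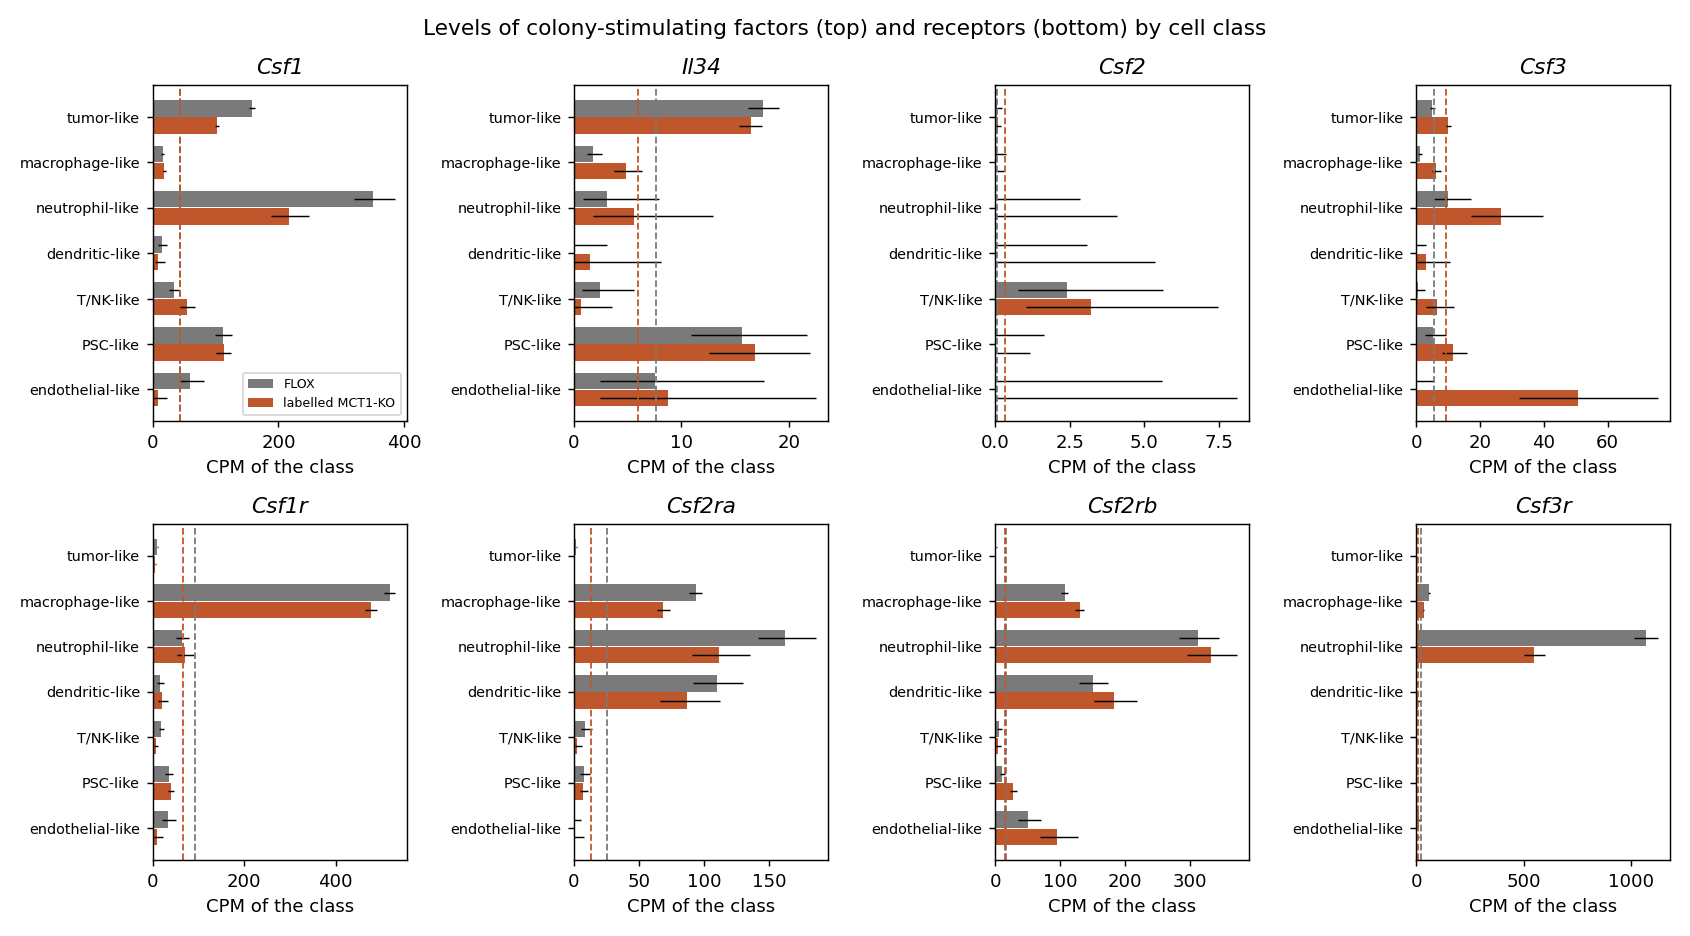
Bars give CPM of the 4 ligands (top) and 4 receptor chains (bottom) in 7 cell classes, for the FLOX library (grey) and the library labelled MCT1-KO (orange); lines are 95% counting intervals and dashed lines the level in free RNA of each library. Csf1 was highest in neutrophil-like cells (351 and 217 CPM), Csf1r in macrophage-like cells (518 and 477 CPM) and Csf3r in neutrophil-like cells (1071 and 548 CPM).

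Csf1r, the receptor of Csf1 and Il34, was highest in macrophage-like cells. They held 8020 and 5693 UMIs, or 518 CPM (507–529.5) in the FLOX library and 477 CPM (465–489.9) in the library labelled MCT1-KO. The ratio of 0.921 (0.891–0.953) was below 1 beyond counting error, but it was 1.01 when likely doublets were left out and 1.03 with no upper limit on genes and classes by the marker score of each cell. At 1000 UMIs per cell, 41.6% and 39.1% of macrophage-like cells held a Csf1r UMI, against 1.16% and 0.765% of tumor-like cells. Without thinning the shares were 84.3% and 81.1% of macrophage-like and 12.5% and 7.41% of tumor-like cells. Among the macrophage-like clusters, the C1q and Ccl8 cluster held 579.7 and 574 CPM and the Arg1 cluster 455 and 509.7 CPM. The cycling cluster held 448 and 397 CPM, and a C1q cluster with few UMIs per cell 261 and 156 CPM. The order of the libraries thus differed between clusters, with a ratio of 1.12 (1.04–1.21) in the Arg1 cluster and 0.597 (0.498–0.717) in the cluster of few UMIs. The latter held more of the tumor marker Krt8 (261 and 312 CPM) than the C1q and Ccl8 cluster (45.6 and 42.95 CPM) and less of the leukocyte gene Ptprc (174 and 129 against 376 and 362 CPM), and the part of this in its ratio was not tested.

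In the other named classes Csf1r stayed low. It was 8.17-fold (6.57–10.3) and 6.82-fold (5.32–8.89) higher in macrophage-like than in neutrophil-like cells, which held 63.4 and 70.01 CPM. Free RNA held 93.03 and 65.2 CPM, so the levels of dendritic-like cells (16.6 and 20.3 CPM), PSC-like cells (35.3 and 39.6 CPM) and tumor-like cells (10.3 and 5.59 CPM) lay below it, and those of neutrophil-like cells near it. No expression of Csf1r in these classes is read from them. A cluster left unnamed because it carried markers of both macrophages (11 of 11 detected) and T/NK cells held 381 and 407 CPM on 108 and 52 UMIs.

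Csf2ra, the chain that binds GM-CSF, was counted in 3 myeloid classes. Neutrophil-like cells held 162 CPM (141–186) and 111 CPM (90.4–135), dendritic-like cells 109.6 CPM (91.7–130.0) and 87.02 CPM (66.4–112), and macrophage-like cells 93.4 CPM (88.7–98.3) and 68.8 CPM (64.1–73.6). Neutrophil-like cells lay above macrophage-like cells, by 1.74-fold (1.50–2.01) and 1.62-fold (1.30–1.99), while dendritic-like and macrophage-like cells could not be separated, at 1.17-fold (0.975–1.40) and 1.27-fold (0.957–1.65). All 3 classes had less in the library labelled MCT1-KO, with a ratio of 0.736 (0.675–0.803) in macrophage-like cells and 0.684 (0.534–0.872) in neutrophil-like cells, and one of 0.794 (0.575–1.08) in dendritic-like cells that held 1. All 4 macrophage-like clusters had ratios below 1, from 0.721 (0.603–0.860) in the Arg1 cluster to 0.850 (0.555–1.33) in the cluster of few UMIs, whose interval held 1. Free RNA fell from 25.2 to 13.4 CPM, a ratio of 0.533 (0.468–0.606). Endothelial-like cells held 0 UMIs in both libraries, and tumor-like cells 1.97 and 0.744 CPM, below free RNA.

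Csf2rb, the shared signalling chain, went the other way from Csf2ra in macrophage-like cells. They held 1652 and 1547 UMIs, or 107 CPM (102–112) in the FLOX library and 129.7 CPM (123–136) in the library labelled MCT1-KO, a ratio of 1.22 (1.13–1.30). The C1q and Ccl8 cluster moved from 106 to 153 CPM, a ratio of 1.44 (1.32–1.58), and the Arg1 cluster from 131 to 143 CPM, whose ratio of 1.09 (0.955–1.25) held 1, as did that of the cycling cluster, 0.978 (0.762–1.25). After subtraction of free RNA by the acinar genes, the ratio of macrophage-like cells was 0.938, below 1, and by the keratin genes 1.27. The copy Csf2rb2 held 23.3 and 25.1 CPM in macrophage-like cells, a ratio of 1.08 (0.919–1.26).

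The highest Csf2rb level was in neutrophil-like cells, at 312 CPM (282–344) and 332 CPM (296–372), 2.92-fold (2.61–3.26) and 2.56-fold (2.26–2.90) the level of macrophage-like cells. Those folds were 4.64 and 3.58 with free RNA subtracted by the acinar genes, and 2.19 and 1.64 with no upper limit on genes and classes by the marker score of each cell. Dendritic-like cells came next, at 150.3 CPM (129–174) and 183 CPM (152–218). Endothelial-like cells held 33 and 43 UMIs, or 50.03 CPM (34.4–70.3) and 94.5 CPM (68.4–127), above free RNA at 16 and 15.6 CPM and with 0 UMIs of Csf2ra beside them. Another partner of the shared chain, the IL-3 receptor chain Il3ra, was counted in these cells at 34.9 and 30.8 CPM, while Il3 had 0 UMIs in all kept cells of both libraries. PSC-like cells held 24 and 88 UMIs, a ratio of 2.60 (1.64–4.28), and 1 cell of the library labelled MCT1-KO held 12 of them. Their level of 10.7 CPM (6.86–15.9) in the FLOX library lay below free RNA, and that of 27.9 CPM (22.4–34.4) in the other above it.

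Csf3r, the receptor of G-CSF, was highest in neutrophil-like cells. They held 1385 UMIs in FLOX and 493 in the library labelled MCT1-KO, or 1071 CPM (1016–1129) and 548 CPM (501–598), a ratio of 0.511 (0.461–0.567). At 1000 UMIs per cell, 62.4% (58.7–65.99%) and 38.1% (33.5–42.8%) of neutrophil-like cells held a Csf3r UMI, against 0.326% and 0.137% of tumor-like cells. Thinning left out 54 of 756 and 269 of 705 neutrophil-like cells, which held fewer UMIs, and without it the shares of cells were 71.7% and 46.2%. The lower level in the library labelled MCT1-KO was counted in both finer clusters, whose Retnlg differed between the libraries as given above, at 1158 against 574 CPM in S100a8-high cells and 1003 against 534 CPM in S100a8-low cells. Free RNA moved in the same direction, from 19.5 to 8.82 CPM, a ratio of 0.451 (0.385–0.527).

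Macrophage-like cells held 903 and 401 UMIs of Csf3r, or 58.3 CPM (54.6–62.3) and 33.6 CPM (30.4–37.1), a ratio of 0.576 (0.511–0.649). All 4 of their clusters were lower in the library labelled MCT1-KO. The C1q and Ccl8 cluster held 69.6 and 40.3 CPM and the Arg1 cluster 45.8 and 37.4 CPM, where the ratio of 0.816 (0.633–1.05) held 1. Macrophage-like cells with a Csf3r UMI held the neutrophil alarmins S100a8 and S100a9 at 218 and 264 CPM, and the C1q genes, markers of macrophages, at 15192 and 15115 CPM. Those without held S100a8 and S100a9 at 198 and 96.2 CPM and C1q at 14397 and 14133 CPM. The alarmins were thus higher with Csf3r in the library labelled MCT1-KO, and the part of neutrophil RNA in the Csf3r level was not tested. Neutrophil-like cells stood 18.4-fold (16.9–19.99) and 16.3-fold (14.3–18.6) above macrophage-like cells. The folds were 32.01 and 23.5 with free RNA subtracted by the acinar genes, and 13.3 and 10.4 with no upper limit on genes and classes by the marker score of each cell. Dendritic-like cells held 3 and 4 UMIs and tumor-like cells 2.72 and 0.908 CPM, below free RNA.

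**Figure D4:**
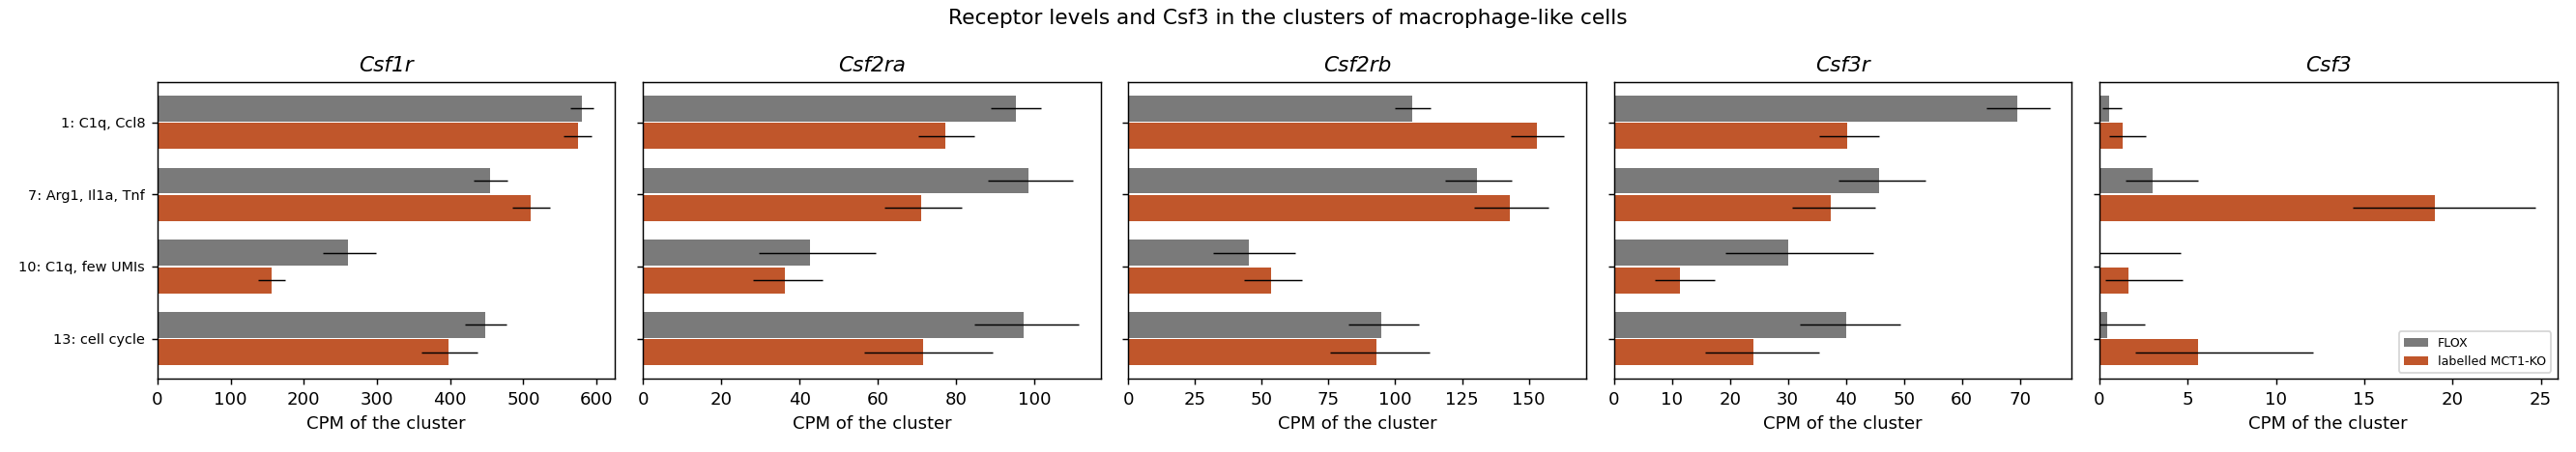
Bars give CPM of the 4 receptor chains and of Csf3 in the 4 clusters of macrophage-like cells, for the FLOX library (grey) and the library labelled MCT1-KO (orange), with 95% counting intervals as lines. Csf2ra and Csf3r were lower in the library labelled MCT1-KO in each cluster, Csf2rb was higher in the C1q and Ccl8 cluster (106 and 153 CPM), and Csf3 stood out in the Arg1 cluster (3.03 and 19.02 CPM).

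Within the macrophage-like class, 120 and 105 cells had their highest marker score for monocytes, the blood-derived precursors of macrophages. In these cells Csf1r was 361 and 277 CPM, against 531 and 519 CPM in cells of the same class with their highest score for macrophages. Csf2ra was 143 CPM (119–170.3) against 90.2 CPM (85.4–95.3) in the FLOX library. In the library labelled MCT1-KO its intervals overlapped, at 97.6 CPM (73.7–127) against 69.2 CPM (64.1–74.5). Csf2rb was 173 CPM (146–202) against 103 CPM (98.1–109) in the FLOX library. Its intervals too overlapped in the library labelled MCT1-KO, at 152 CPM (121–187) against 136 CPM (129–143). Csf3r was 36.3 and 22.7 CPM against 58.96 and 35.4 CPM, with overlapping intervals in the library labelled MCT1-KO. S100a8, which neutrophils also express, was 1081 and 183 CPM in the monocyte-scored cells against 52.3 and 59.3 CPM, and its part in these levels was not tested. Over all cells and classes, 17.9% and 16.3% had a highest score within 0.1 of the next class. This margin was not computed for the monocyte-scored cells alone, so they are named by score and not as a separate cell type.

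Ratios of the ligands and receptors between the libraries were set beside those of all genes. In tumor-like cells 4.62% of genes with at least 50 UMIs were past 2-fold, 1.72% higher in the library labelled MCT1-KO and 2.91% higher in the FLOX library. Of the 3 ligands measured at that depth 0 were, since the Csf3 ratio lay just under 2 before rounding, and of the 4 receptors Csf2ra and Csf3r were lower in the library labelled MCT1-KO, both at levels below free RNA. In macrophage-like cells, where 6.0% of genes were past 2-fold (2.97% higher in the library labelled MCT1-KO and 3.04% in FLOX), 2 of 3 ligands, Il34 and Csf3, were higher in the library labelled MCT1-KO, both at class levels below free RNA in each library, and 0 of 4 receptors were past it. In neutrophil-like cells 0 of 5 were past it, against 7.39% of genes (3.61% and 3.78%), with Csf3r just under. In dendritic-like cells 0 of 2 were past it, against 6.95% (2.77% and 4.18%). In T/NK-like cells Csf1r was lower, 1 of 2 measured, against 3.92% of genes (1.46% and 2.47%), and below free RNA. In PSC-like cells Csf2rb was higher, 1 of 4, against 6.98% of genes (3.55% and 3.42%), with its FLOX level below free RNA. In endothelial-like cells 0 of 1 were past it, against 6.15% (1.90% and 4.25%). The median ratio of the receptors was 0.454 in tumor-like cells, 0.824 in macrophage-like cells and 0.854 in neutrophil-like cells, where that of all genes was 1.01, 1.02 and 1.08. In tumor-like cells all 4 receptors lay below free RNA in both libraries, so no receptor expression is read from that median. Free RNA had ratios of 0.700 for Csf1r, 0.533 for Csf2ra, 0.976 for Csf2rb and 0.451 for Csf3r.

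**Figure D5:**
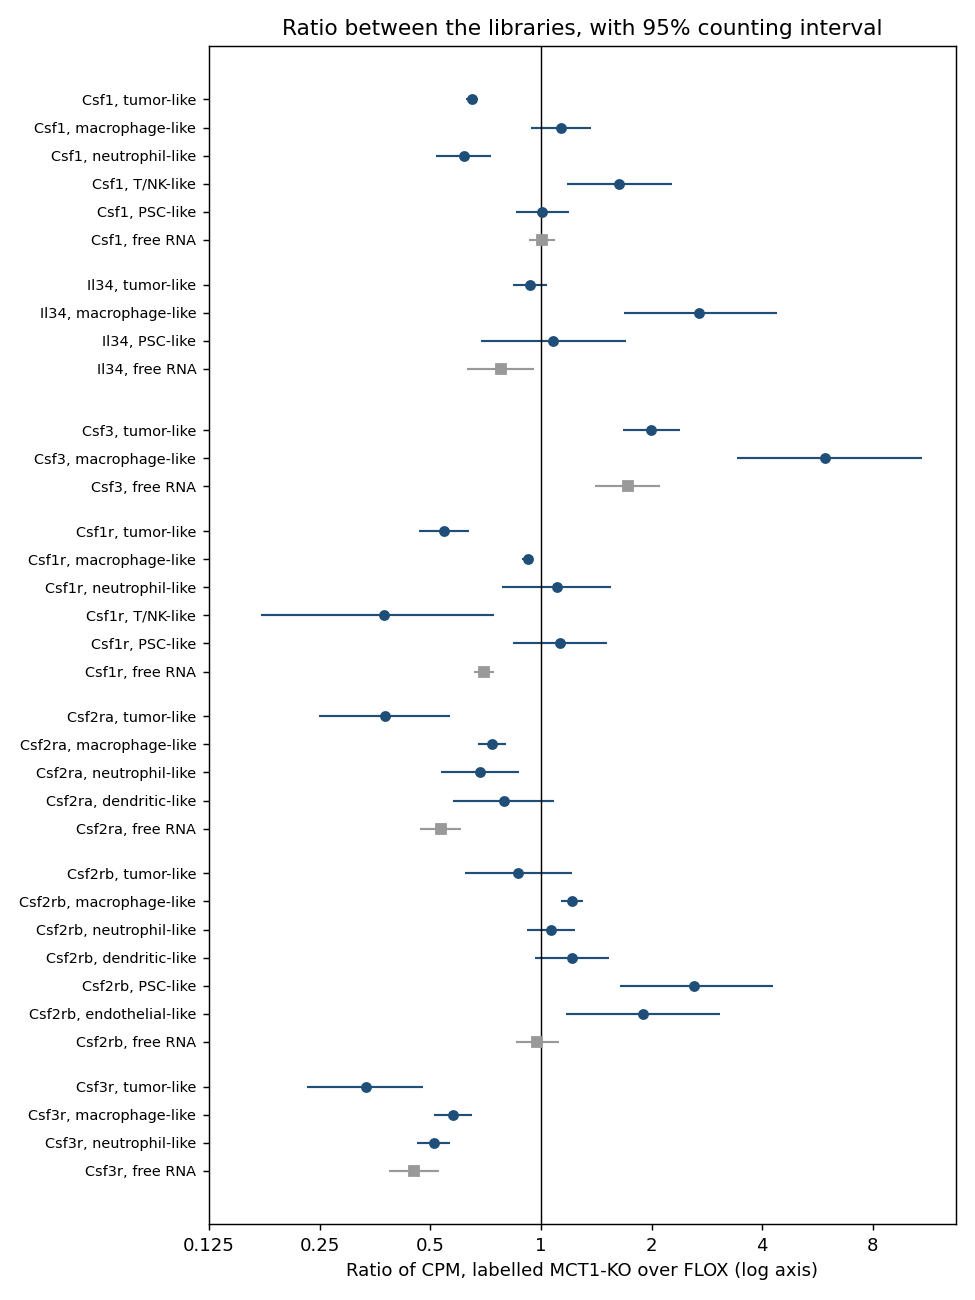
Points give the ratio of CPM in the library labelled MCT1-KO over the FLOX library on a log axis, with 95% counting intervals as lines, for each gene and class with at least 50 UMIs; grey squares are free RNA and the vertical line marks a ratio of 1. Csf3r was below 1 in neutrophil-like (0.511) and macrophage-like cells (0.576) and in free RNA (0.451), while Csf1 was below 1 in tumor-like (0.649) and neutrophil-like cells (0.617) with free RNA at 1.01.

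Genes that act downstream of these receptors were counted by class. Of 14 genes of receptor signalling, which include the kinases Jak2 and Lyn, the STAT factors and the feedback inhibitors of the SOCS family, 14 were measured in tumor-like cells, 14 in macrophage-like cells and 12 in neutrophil-like cells, and 0 were past 2-fold in any of these, where 4.62%, 6.0% and 7.39% of all genes were. Such a count is near the share of all genes. Their median ratios were 0.832, 0.884 and 0.964, beside 1.01, 1.02 and 1.08 for all genes. Socs3, an inhibitor that G-CSF signalling induces through Stat3, was 275 and 201 CPM in neutrophil-like cells, a ratio of 0.733 (0.609–0.879), and 374 and 284 CPM in macrophage-like cells, a ratio of 0.761 (0.729–0.794). Pim1, a kinase gene induced by STAT factors, was 3107 and 1968 CPM in neutrophil-like cells, a ratio of 0.633 (0.599–0.670). In macrophage-like cells it was 529 and 544 CPM. Cish, a target of Stat5, was 11.2 and 37.4 CPM in PSC-like cells, the 1 gene of 13 measured there that was past 2-fold, against 6.98%. In T/NK-like cells Ptpn6, a phosphatase that restrains cytokine receptors, was lower, 1 of 13 against 3.92% of all genes. In dendritic-like cells 0 of 12 were past 2-fold, against 6.95%, and in endothelial-like cells 0 of 7, against 6.15%.

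Transcription factors that drive the receptor genes in myeloid cells formed a list of 8, of which 6 were measured in macrophage-like cells and 0 were past 2-fold, against 6.0% of all genes, with a median ratio of 0.946. Spi1, which encodes PU.1, was 309 and 284 CPM there and 412 and 326 CPM in neutrophil-like cells. Of 4 factors measured in neutrophil-like cells 1, Cebpe, needed for the formation of granules in maturing neutrophils, was lower, against 7.39% of all genes, at 60.3 and 22.2 CPM. Of 5 in dendritic-like cells 1, Irf8, required by a subset of dendritic cells, was lower, against 6.95%, at 964 and 396 CPM. Markers of that subset were lower as well, with Xcr1 at 359.6 and 141 CPM and Clec9a at 204 and 87.02 CPM, and their part in the Irf8 level was not tested. Spi1 was also lower in tumor-like cells, 1 of 6 measured against 4.62%, and Runx1 in endothelial-like cells, 1 of 4 against 6.15%. The leukocyte gene Ptprc was lower there too, at 6.13 and 3.30 CPM in tumor-like and 31.8 and 4.40 CPM in endothelial-like cells. The part of leukocyte RNA in the Spi1 and Runx1 levels was not tested.

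Cytokines that induce colony-stimulating factors, and their receptors and NF-kB mediators, formed a list of 14 genes. In tumor-like cells 13 were measured and 1, Il1rap, was past 2-fold against 4.62% of all genes, on 12 and 41 UMIs, and the median ratio was 1.04. Nfkbia, the NF-kB inhibitor that NF-kB itself induces, was 2559 and 1745 CPM there. In macrophage-like cells Il1r1 was higher, at 4.52 and 13.2 CPM, 1 of 13 against 6.0% of all genes, and in neutrophil-like cells 0 of 11 were past 2-fold, against 7.39%. Il1b and Tnf were higher in PSC-like cells, 2 of 12 against 6.98% of all genes. Il1r1 was higher in endothelial-like cells, 1 of 8 against 6.15%, and in dendritic-like cells Il1b was higher and Il1a lower, 2 of 9 against 6.95%. Il1b, the main form of interleukin 1 in myeloid cells, was 15676 and 12254 CPM in neutrophil-like cells and 1411 and 1544 CPM in macrophage-like cells. Il17a, a T cell cytokine that raises Csf3 in many tissues, was counted with 45 UMIs in T/NK-like cells of the FLOX library and 0 of the other, for which a one-sided 95% limit is 3 UMIs. It fell short of 50 UMIs in all and so was not among the genes measured.

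A list of other inflammatory genes held 8, of which Ptgs2 encodes an enzyme and the others secreted factors. In macrophage-like cells Il6, at 7.36 and 32.8 CPM, and Cxcl5, a neutrophil-attracting chemokine, at 22.6 and 55.9 CPM, were past 2-fold with Csf3, against 6.0% of all genes, and the median ratio of the 8 was 1.50, beside 1.02 for all genes. Of the Cxcl5 UMIs, 103 and 444 were in the cluster of few UMIs, which also carries tumor-like transcripts, at 129 and 239.9 CPM. In the C1q and Ccl8 cluster Cxcl5 was 16.3 and 16.9 CPM. Il6 was highest in the Arg1 cluster, at 23.9 and 95.4 CPM. In neutrophil-like cells Cxcl5 was higher, and Cxcl2, Ccl2 and Ptgs2 were lower, 4 of 6 against 7.39% of all genes, with Cxcl2 at 29912 and 13019.5 CPM. In tumor-like cells 0 of 8 were past 2-fold, against 4.62%, with Lif at 64.6 and 82.3 CPM and Il6 at 37.8 and 48.2 CPM. Cxcl1 was higher in T/NK-like cells, 1 of 5 against 3.92% of all genes, and Cxcl1 and Ptgs2 in dendritic-like cells, 2 of 4 against 6.95%. The tumor markers Krt8 and Krt18 were higher there too, with sums of 112 and 182 CPM in T/NK-like cells. In dendritic-like cells they summed to 90.5 and 361 CPM. The part of tumor RNA in the Cxcl1 and Ptgs2 levels was not tested. Among other growth factors of blood cells, Kitl was 101 and 88.8 CPM in tumor-like cells and 572 and 321 CPM in endothelial-like cells. Flt3, the receptor that maintains dendritic cells, was 137 and 135 CPM in dendritic-like cells.

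Across the 23 clusters, with both libraries pooled, the log2 levels of the 4 receptor chains followed each other, with Pearson correlations from 0.722 (Csf1r and Csf3r) to 0.809 (Csf2ra and Csf2rb). Csf1 and Il34 correlated at 0.703. Each ligand and receptor except Csf2, which had too few UMIs (18), was then set against 12699 genes. The genes most like Csf1r were Lyz2 (0.99), Adgre1 (0.99) and Apoc2 (0.98), those most like Csf2ra Ccr1 (0.93), Alox5ap (0.93) and Lrrc25 (0.92), those most like Csf2rb Bst1 (0.96), Nod2 (0.95) and Kctd12 (0.95) and those most like Csf3r Acod1 (0.97), Sirpb1b (0.96) and Gm5150 (0.96). The genes most like Csf1 were Fas (0.91), Gm20186 (0.89) and Resf1 (0.88) and those most like Il34 Ptk7 (0.96), Sh3d19 (0.95) and Lgr4 (0.95). Csf3 had no close match, with Apol8 (0.72), Nfkbia (0.70) and Sele (0.69) leading. Clusters share libraries and depth, so these values describe the clusters and carry no test.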

How the data were processed

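Tumors of 1 FLOX and 1 MCT1-KO library were dissociated and sequenced as 3′ single-cell libraries. The labels name a SeekOne MM kit, whereas the methods name either the 10x Chromium platform or a SeekOne DD kit, so the platform is uncertain. Reads were trimmed with Fastp and counted with SeekOneTools, and Seurat 4.0.0 is named in the submitters' processing notes. The human GRCh38 build is named although gene identifiers are mouse, so which build was used for counting remains unknown. The authors deposited raw UMI counts per gene and barcode for all barcodes, 1437105 and 1433633, with 177334432 and 151118092 UMIs.

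Barcodes with at least 500 UMIs, 200 to 5000 genes and a mitochondrial share of at most 8% were kept, and 2060 and 1231 barcodes over 5000 genes were left out. Cells were clustered with Seurat 5.3.0 (R 4.3.3) after integration of the libraries, on 2000 variable genes and 20 dimensions at a resolution of 0.8, with the 8 genes reported here left out of clustering. Clusters were named from marker lists where at least 3 markers were each detected in 10% of cells and the 10 leading genes did not go against the name. Doublets were kept, and an alternative left out the 8% with the highest doublet score. UMIs were summed per class with numpy 2.4.6 and scipy 1.17.1 and divided by the total UMIs of the class. Intervals are exact 95% Poisson intervals for levels, exact conditional intervals for ratios and Clopper-Pearson intervals for shares. Shares of cells with a UMI were computed after each cell was thinned to 1000 UMIs. Free RNA was the sum over barcodes of 10 to 100 UMIs, and was subtracted in an alternative in proportion to acinar or keratin genes. Subtraction by acinar genes covered every class but acinar cells, and so tumor-like cells as well. Subtraction by keratin genes left out tumor-like, acinar and unnamed cells. The interval for ratios was tested on simulated Poisson counts that were already summed. The summing of cells, the thinning and the other intervals were not tested in this way.

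Genes past 2-fold were counted among those with at least 50 UMIs in a class. Similar genes are the 3 with the highest Pearson correlation over 23 clusters among genes of at least 200 UMIs. Named genes are the 8 and those of fixed lists, of which some are not reported here. The members, lists and markers were chosen with earlier results of these data known. Alternatives changed the minimum UMI count, the mitochondrial and gene limits, the resolution (0.4 and 1.2), the integration, the rule for classes, the doublets, the free RNA, the total and the depth of thinning.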

Additional observations from a re-analysis of the deposited data

Results flagged for a closer look

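Csf1 moved in opposite directions between classes. The ratio of the library labelled MCT1-KO over the FLOX library was 0.649 in tumor-like cells, 0.617 in neutrophil-like cells and 0.149 in endothelial-like cells, but 1.63 in T/NK-like cells, and each interval left out 1. With 1 library per genotype the difference between classes was not tested. The endothelial-like value rests on 39 UMIs in FLOX, 29 of them in 10 cells, against 4 UMIs in the other library, whose level of 8.79 CPM lay below free RNA. In T/NK-like cells the Csf1 level of 33.3 CPM in FLOX lay below and that of 54.3 CPM in the other library above free RNA, at 43.5 and 43.8 CPM.

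Barcodes with more than 5000 genes, which the comparisons left out, also held these transcripts. There were 2060 such barcodes with 66484105 UMIs in the FLOX library and 1231 with 37348737 UMIs in the library labelled MCT1-KO. Csf1 stood at 127 and 84.7 CPM in them, Il34 at 23.5 and 17.97 CPM and Csf3 at 5.84 and 6.53 CPM. Csf2 stood at 0.436 and 0.348 CPM on 29 and 13 UMIs, against 8 and 10 in all kept cells. In the FLOX library these barcodes also held more UMIs than all kept cells of Csf1 (8466 against 6601), Il34 (1560 against 706) and Csf3 (388 against 221), and they entered only the alternative with no upper limit on genes. The receptor chains were lower than in macrophage-like cells. Csf1r was 12.4 and 6.45 CPM, Csf2ra 2.18 and 1.07 CPM, Csf2rb 2.60 and 2.28 CPM and Csf3r 2.71 and 1.04 CPM. Whether these barcodes are single large cells or doublets was not tested.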

How the results depend on the processing

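The 29 values that carry the comparisons were recomputed under up to 13 alternatives. Of 328 recomputed values 218 stayed within their counting interval, 107 moved beyond it and 3 turned in direction. A turn was counted only for a ratio or fold whose main interval left out 1. The mitochondrial limit of 5% moved none of the 29. The removal of heat shock, acinar and mitochondrial genes from the total was recomputed only for the ratios between the libraries and moved none of those. Folds between classes and shares were not recomputed under it. Where a pair is given, the FLOX library comes first, and the causes were not tested. The values that moved were as follows. With a minimum of 1000 UMIs per cell, tumor-like cells held 83.8% of Csf1 in MCT1-KO, and macrophage-like cells held 78.5% of Csf2ra in MCT1-KO and 71.6% of Csf2rb in MCT1-KO, and neutrophil-like cells held 37.8% of Csf3r in MCT1-KO. The minimum of 1000 UMIs gave ratios of 0.406 for Csf3r in neutrophil-like cells, and folds of 12.9 for Csf3r in MCT1-KO (neutrophil-like over macrophage-like). Without likely doublets, macrophage-like cells held 92.8% and 91.6% of Csf1r, and neutrophil-like cells held 59.6% of Csf3r in FLOX, and tumor-like cells held 84.99% of Csf1 in MCT1-KO and 87.6% of Il34 in MCT1-KO. Removal of doublets gave ratios of 1.01 for Csf1r and 1.33 for Csf2rb in macrophage-like cells. At a resolution of 0.4, tumor-like cells held 81.4% of Csf1 in FLOX. At a resolution of 1.2, tumor-like cells held 80.9% of Csf1 in FLOX, and macrophage-like cells held 84.9% of Csf1r in MCT1-KO, 72.3% of Csf2ra in MCT1-KO and 65.1% of Csf2rb in MCT1-KO. Without integration of the libraries, tumor-like cells held 74.7% and 80.5% of Csf1 and 76.2% of Il34 in FLOX. With classes set by the marker score of each cell, tumor-like cells held 32.4% and 52.5% of Csf1, 34.1% and 54.4% of Il34 and 35.7% and 45.9% of Csf3, and macrophage-like cells held 86.3% and 81.9% of Csf1r, 67.2% and 64.6% of Csf2ra and 60.9% and 60.3% of Csf2rb, and neutrophil-like cells held 46.7% of Csf3r in MCT1-KO. Classes by marker score gave ratios of 0.793 for Csf1 and 1.17 for Il34 in tumor-like cells, and 0.974 for Csf1r and 1.31 for Csf2rb in macrophage-like cells, and folds of 2.42 and 1.82 for Csf2rb and 14.7 and 11.7 for Csf3r (neutrophil-like over macrophage-like), and 1.71 for Csf1 in MCT1-KO (neutrophil-like over tumor-like). With no upper limit on genes and classes by the marker score of each cell, tumor-like cells held 42.6% and 51.7% of Csf1, 48.5% and 55.5% of Il34 and 52.5% and 42.7% of Csf3, and macrophage-like cells held 81.5% and 80.2% of Csf1r, 65.2% and 64.4% of Csf2ra and 58.5% and 59.2% of Csf2rb, and neutrophil-like cells held 53.1% and 45.3% of Csf3r. The same without a gene limit gave ratios of 0.755 for Csf1, 0.835 for Il34 and 1.24 for Csf3 in tumor-like cells, and 1.03 for Csf1r, 0.815 for Csf2ra and 1.40 for Csf2rb in macrophage-like cells, and folds of 2.19 and 1.64 for Csf2rb and 13.3 and 10.4 for Csf3r (neutrophil-like over macrophage-like), and 1.66 for Csf1 in MCT1-KO (neutrophil-like over tumor-like). With free RNA subtracted by the acinar genes, tumor-like cells held 86.8% and 84.5% of Csf1, 93.2% of Il34 in FLOX and 89.2% and 76.9% of Csf3, and macrophage-like cells held 99.3% and 93.8% of Csf1r, 80.3% and 80.2% of Csf2ra and 71.5% and 70.1% of Csf2rb, and neutrophil-like cells held 62.7% of Csf3r in FLOX. Subtraction by acinar genes gave ratios of 0.606 for Csf1 in tumor-like cells, and 0.412 for Csf1 and 0.345 for Csf3r in neutrophil-like cells, and 0.718 for Csf1r, 0.589 for Csf2ra, 0.938 for Csf2rb and 0.469 for Csf3r in macrophage-like cells, and folds of 4.52 and 3.07 for Csf1 (neutrophil-like over tumor-like), and 4.64 and 3.58 for Csf2rb and 32.01 and 23.5 for Csf3r (neutrophil-like over macrophage-like). Means per cell in place of CPM gave ratios of 0.461 for Csf1 and 0.382 for Csf3r in neutrophil-like cells, and 0.817 for Csf1r, 0.652 for Csf2ra, 1.08 for Csf2rb and 0.511 for Csf3r in macrophage-like cells. With free RNA subtracted by the keratin genes, an alternative chosen after seeing the data, macrophage-like cells held 91.2% and 90.1% of Csf1r. Subtraction by keratin genes gave ratios of 0.962 for Csf1r in macrophage-like cells, and folds of 2.66 and 2.54 for Csf1 (neutrophil-like over tumor-like), and 20.6 for Csf3r in FLOX (neutrophil-like over macrophage-like). With unnamed clusters that carry tumor markers counted as tumor-like, also chosen after seeing the data, tumor-like cells held 82.1% and 86.2% of Csf1, 87.5% and 87.6% of Il34 and 77.3% of Csf3 in MCT1-KO. The values that turned were the Csf1r ratio of macrophage-like cells, without doublets and with no upper limit on genes together with classes by marker score, and the Csf2rb ratio of these cells, with free RNA subtracted by the acinar genes. The Il34 ratio of tumor-like cells also crossed 1, from 0.933 to 1.17 with classes by marker score. It was counted as moved because its main interval held 1. Raising the minimum to 1000 UMIs gave no separate share of thinned cells, since thinning already requires it. No paired analysis was possible because each genotype has 1 library and no result comes from a test, and for the same reason no library could be left out. Depth limits Csf2 most, with 8 and 10 UMIs in all kept cells.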
